A study of Mus musculus with 12 samples.

Results

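Retinas of mice that had received 20 nm silicate nanoparticles in the vitreous were compared with retinas of mice that had received phosphate-buffered saline (PBS). The comparison rests on 3 arrays, those titled as silicate 20 nm at 7 days, of 12 arrays in the series. The animals were male C57BL/6 mice 5 weeks old, the right eye was injected, and the retina was taken 7 days later. Each group had 12 mice, and 4 retinas were pooled in each tube, so a value is the mean of 4 eyes and no spread between single animals can be seen. On every array the RNA of a particle pool carried the red dye Cy5 and that of a PBS pool the green dye Cy3. Other arrays held silicate 100 nm, gold 20 nm and gold 100 nm against PBS, with 3 arrays each, in mice of the same description. The labels give the silicate size once with the unit nM, while the growth protocol gives diameters in nm, and the strain of the PBS mice is written C57BL/7, C57BL/8 and C57BL/9 on the 3 arrays. Uninjected eyes were not analysed here.

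The retina is a layered neural tissue in which rods and cones capture light, bipolar, amacrine and ganglion cells pass the signal on, and Müller glia span all layers and support the neurons. Microglia are its resident immune cells, and after injury they are joined by blood-borne macrophages and neutrophils while Müller glia and astrocytes raise filament proteins, a response called gliosis. Around the neural retina lie the pigment epithelium, the ciliary body that secretes into the vitreous, the lens and the cornea, and RNA of these tissues can be present in a dissected retina. Silicate here means silica-type particles, as the labels name them, and nothing about their coating was given in the sources used here.

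Values below are log2 ratios of silicate 20 nm over PBS, positive where the particle pool was higher, and levels are normalized log2 intensities of the same probe in each pool. Of 39429 probes, those well above background gave 23203 genes. The 12 arrays lay on 3 slides with every particle group once per slide. Silicate 20 nm was at place 3 each time, and an effect of that place cannot be told apart from one of the particle. A gene was called changed at an adjusted p under 0.05 in the limma fit over all 12 arrays. The 3 arrays were unlike each other. Ratios spread over genes with an SD of 0.603 on slide 1, 0.311 on slide 2 and 0.659 on slide 3, and over genes (not independent replicates) their correlation was 0.164 between slides 1 and 2, 0.298 between slides 2 and 3 and -0.536 between slides 1 and 3. On slide 1, 1111 genes lay below -1 and on slide 3, 1785 lay above 1, and 815 genes did both. The dyes are stated for each array, so the direction was kept. Rod genes checked the tissue: the median level over 22 rod markers was 15.88 to 16.61 in the silicate pools and 16.36 to 17.02 in the PBS pools. The probes named Itgam, Csf3r and Siglech, myeloid and microglial markers, read 14.13 to 17.45 in all 6 pools and did not follow the other markers of their lists.

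Against PBS, 370 genes were called higher (1.59% of those tested) and 115 lower (0.496%). Csrp3, Hdc, Bub1b and Ahrr fell most among called genes with 1 sign on 3 arrays and a symbol (clone names left out). Of all genes called lower, 5 had a ratio under -1. Large rises of genes well above background in both channels were those of Fbln1, Optc, Krt19, Gpx3 and Slc13a4. Of the 485 called genes (2.09%), 481 had the same sign on all 3 arrays, and the median ratio was 0.565 among higher genes and -0.361 among lower ones, beside 0.0104 over all genes. With the slide as a random block 248 genes (1.07%) were higher and 41 (0.177%) lower, sharing 237 and 39 genes with the counts above. Fitting the replicate number as a block, which takes differences between slides out of the error (called the replicate block here), gave 8.78% of genes, 1221 (5.26%) higher and 816 (3.52%) lower. The particle pool was in Cy5 and PBS in Cy3 on every array, so dye and treatment cannot be told apart for any call against PBS, and Vegfa (0.41 beside 0.25 with gold 20 nm, 0.31 with gold 100 nm and 0.30 with silicate 100 nm) is an example of a similar ratio in each group. The calls borrow the spread of the other groups: a fit to the 3 silicate 20 nm arrays alone called 0 genes, with 1376 at an unadjusted p under 0.05 and a lowest adjusted p of 0.164. Without slide 1, 44 genes were higher and 4 lower, without slide 2 it was 8 and 0, and without slide 3 it was 169 and 6. Higher genes made up 76.3% of the calls, 87.7% after median centring in place of loess, and 48.6% from the authors' deposited value table.

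Csrp3, which encodes a LIM protein of striated muscle, had the largest fall among called genes with 1 sign and a symbol (clone names left out). Its level was 8.16, 8.75 and 8.32 in the PBS pools of slides 1, 2 and 3 and 6.92, 7.63 and 6.70 in the silicate pools. The groups did not overlap, and the ratio was -1.32 ± 0.26 (SD, n = 3), a 2.51-fold fall (adjusted p = 0.00562, kept at 0.0182 with the random block). Here and below, non-overlap describes genes picked for their calls, and its share over all genes was not counted. The other muscle genes did not move with Csrp3, as given below. Glb1l3, a gene named for its likeness to beta-galactosidase, had a lower mean, with ratios of -1.17, -1.22 and -2.20, and was not called (adjusted p = 0.0694). Hdc, the enzyme that makes histamine from histidine, stood at 12.74, 12.63 and 12.78 in PBS and at 11.43, 11.82 and 11.12 with silicate. The lowest PBS pool was 0.81 above the highest silicate pool, and Hdc fell 2.39-fold (ratio -1.26 ± 0.42, adjusted p = 0.00546, and 0.0048 with the random block). Histamine is made by mast cells and basophils among others, and of 10 markers of these cells 5 were measured. Apart from Hdc none was called, beside 2.09% of all genes. The tryptase Tpsb2 had ratios of -2.70, -0.06 and 1.21 and the chymase Mcpt4 of 0.02, 0.83 and 0.26 on slides 1, 2 and 3.

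Bub1b, a kinase of the spindle checkpoint that holds cells before chromosome separation, was at 11.00, 10.67 and 10.66 in PBS and at 9.63, 9.80 and 9.72 with silicate. It fell 2.08-fold (ratio -1.06 ± 0.27, adjusted p = 0.0103). Of 18 measured cell cycle and spindle genes it was the single one called lower and Dlgap5 the single one called higher. Of all genes 0.496% were called lower and 1.59% higher, and the list's median was 0.12. The proliferation marker Mki67 read -0.37, 0.08 and 2.13 and the ribonucleotide reductase subunit Rrm2 read -0.35, 0.15 and 2.15 on the 3 slides, so their rise was on slide 3. Ect2, an exchange factor needed for cell division, fell with a ratio of -0.61 ± 0.12 (adjusted p = 0.00505) and Asf1b, a histone chaperone, with one of -0.49 ± 0.17 (adjusted p = 0.0445, lost at 0.126 with the random block). Nek11, a kinase of the DNA damage response, fell with a ratio of -0.66 ± 0.26 (adjusted p = 0.0413).

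Ahrr is the repressor of the aryl hydrocarbon receptor, a sensor of foreign chemicals that induces detoxifying enzymes, and the receptor in turn induces Ahrr. Ahrr stood at 12.23, 12.16 and 12.08 in PBS and at 11.31, 11.44 and 11.10 with silicate, again without overlap. It fell 1.83-fold (ratio -0.87 ± 0.13, adjusted p = 0.00562), while a further, dimmer probe of the gene read -0.18. Of 10 measured genes of the pathway, Ahrr was called lower and Cyp1a2, a monooxygenase induced by the receptor, was called higher at a probe not well above background in PBS (at least 1.25-fold, adjusted p = 0.0493, lost at 0.0916 with the random block). Cyp1b1, a further target, had ratios of -0.29, 0.23 and 1.66, and the receptor gene Ahr of -0.79, -0.15 and -0.33. The list's median was 0.15, and of all genes 0.496% were called lower and 1.59% higher.

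Ankrd37, a gene induced by low oxygen, and Vegfa, which drives the growth and leakiness of blood vessels and is a classic target of the hypoxia-inducible factors, moved in opposite directions. Vegfa was at 12.11, 12.05 and 12.08 in PBS and at 12.37, 12.51 and 12.57 with silicate, and rose 1.32-fold (ratio 0.41 ± 0.13, adjusted p = 0.0282). A dimmer probe of Vegfa read -0.04. Ankrd37 was at 11.68, 11.77 and 11.82 in PBS and at 11.18, 11.36 and 11.33 with silicate, and fell 1.38-fold (ratio -0.47 ± 0.05, adjusted p = 0.0285). Both kept the call with the random block, and neither gene's groups overlapped. Of 22 measured hypoxia-induced genes these were the 2 called, beside 2.09% of all genes, and the list's median was 0.03. The glycolytic genes Eno1, Ldha and Pgk1 had ratios of 0.33, 0.13 and -0.03, the glucose transporter gene Slc2a1 had 0.51 and Bnip3, a mitophagy receptor, had -0.23, none of them called. Under the replicate block the list gave 4 rises and 2 falls, beside 5.26% of all genes higher and 3.52% lower in that fit.

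The 250 bases before the start of these 3 genes are shown because factors named above are known by short cores. These are ACGTG for the hypoxia-inducible factors and GCGTG for the aryl hydrocarbon receptor. Binding was not measured. Sequences are from RefSeq, build GRCm38.p6, minus strand of the genome, 5′ to 3′ along the gene, and capitals mark ACGTG or GCGTG on either strand. The windows are chr17:46032378-46032627 for Vegfa, chr8:45999851-46000100 for Ankrd37 and chr13:74292332-74292581 for Ahrr.
Ahrr: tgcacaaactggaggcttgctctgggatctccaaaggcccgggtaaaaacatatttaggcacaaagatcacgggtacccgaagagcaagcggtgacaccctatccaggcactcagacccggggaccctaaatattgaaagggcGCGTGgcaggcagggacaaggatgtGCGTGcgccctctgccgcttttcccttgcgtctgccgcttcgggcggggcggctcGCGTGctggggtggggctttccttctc
Ankrd37: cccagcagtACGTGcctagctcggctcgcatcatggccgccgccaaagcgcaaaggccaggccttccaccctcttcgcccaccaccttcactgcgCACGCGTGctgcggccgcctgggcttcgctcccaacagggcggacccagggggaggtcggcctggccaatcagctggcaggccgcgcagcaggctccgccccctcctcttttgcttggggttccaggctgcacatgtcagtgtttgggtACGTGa
Vegfa: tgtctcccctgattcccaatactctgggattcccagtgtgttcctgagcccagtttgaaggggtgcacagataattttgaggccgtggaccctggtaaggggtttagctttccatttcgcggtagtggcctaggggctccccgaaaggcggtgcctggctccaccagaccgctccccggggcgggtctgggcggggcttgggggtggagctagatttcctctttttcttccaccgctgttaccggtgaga
The Ahrr window held GCGTG at 3 places and ACGTG at 0. The Ankrd37 window held ACGTG at 2 places and GCGTG at 2, the latter being overlapping matches on opposite strands. The Vegfa window held neither at the first of 2 listed starts. Bases further upstream and the other start are not shown, so a site elsewhere is left open. Of 32851 promoter windows of this length in the same table, 16.6% held ACGTG, 28.2% held GCGTG and 38.6% held either. These matches describe the letters of the windows.

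Further falls were small. Of the 115 genes called lower, 115 were below 0 with silicate 100 nm, 105 with gold 20 nm and 103 with gold 100 nm. Their medians there were -0.251, -0.14 and -0.177. With gold 20 nm, gold 100 nm and silicate 100 nm, Anp32a read -0.55, -0.90 and -0.55 and Arsg -0.35, -0.32 and -0.43. Acadm read -0.01, 0.02 and -0.50. Arsg, a lysosomal sulfatase, fell with a ratio of -0.57 ± 0.09 (adjusted p = 0.00498, and 0.01 with the random block), and its levels of 11.60 to 11.65 in PBS and 10.93 to 11.15 with silicate did not overlap. Acadm, which starts the breakdown of medium-chain fatty acids, fell with a ratio of -0.50, Hspb6, a small heat shock protein, with -0.49, the centriole protein gene Poc1b with -0.50, the zinc finger gene Zfat with -0.61, the methyltransferase gene Eef2kmt with -0.48 and the transporter gene Slc17a3 with -0.52 (adjusted p of 0.0263 to 0.0497). Acadm and Eef2kmt kept the call with the random block, and Hspb6, Poc1b, Zfat and Slc17a3 had adjusted p of 0.0503 to 0.0709. Anp32a, a phosphatase inhibitor and histone-binding protein, fell with a ratio of -0.80 (adjusted p = 0.0487, lost at 0.0978 with the random block), and a further probe read -0.35. Car1, a carbonic anhydrase of red cells, fell with -0.27 (adjusted p = 0.0246, lost at 0.0514 with the random block).

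**Figure D1:**
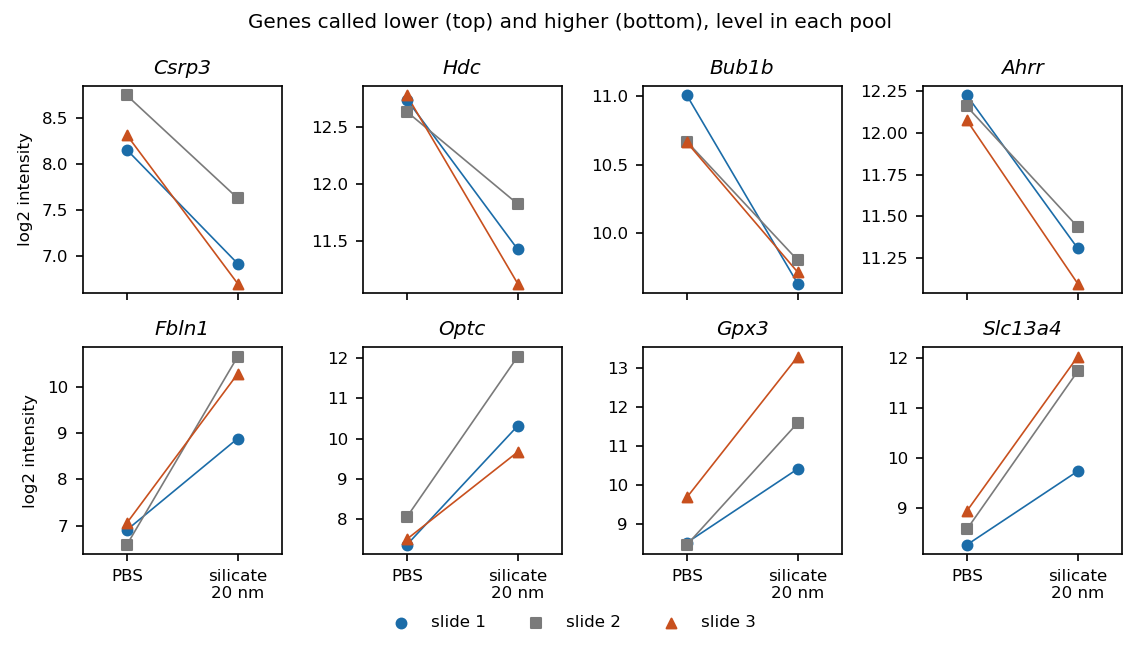
Normalized log2 intensity (vertical axis) of 8 called genes in the PBS and silicate 20 nm pools, with a line and symbol for each slide. Csrp3, Hdc, Bub1b and Ahrr were lower in all 3 silicate pools than in any PBS pool, and Fbln1, Optc, Gpx3 and Slc13a4 were higher on each slide. The genes were picked for their calls.

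Several of the largest rises were of genes that the ciliary body, vitreous and their surroundings secrete. Of 17 measured members of this list 5 were called higher and 0 with the slide as a random block (adjusted p of 0.0809 to 0.136 for the 5). Of the 17, 15 lay above 0 on all 3 arrays and the median was 1.73, with slide medians of 1.47, 1.51 and 1.58. Of all genes tested, 1.59% were called higher and 15.4% lay above 0 on all 3 arrays. The list was chosen with earlier results of these data known, so these shares describe it and do not test it. Fbln1, a matrix glycoprotein, was at 6.91, 6.59 and 7.06 in PBS and at 8.88, 10.64 and 10.27 with silicate. It rose 8.44-fold (ratio 3.08 ± 1.05, adjusted p = 0.0436), and a further probe read 1.92. Optc, a small proteoglycan of the vitreous, was at 7.36, 8.05 and 7.50 in PBS and at 10.31, 12.03 and 9.67 with silicate and rose 8.16-fold (adjusted p = 0.0371). No silicate pool overlapped the PBS pools for either gene. Both genes were also above 0 in the other particle groups. Ratios of Fbln1 and Optc were 2.01 and 2.56 with gold 20 nm and 3.13 and 3.68 with gold 100 nm. With silicate 100 nm they were 1.79 and 2.22.

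Gpx3, the secreted glutathione peroxidase, was at 8.53, 8.47 and 9.68 in PBS and at 10.41, 11.59 and 13.28 with silicate and rose 7.29-fold (adjusted p = 0.0254). The sulfate transporter gene Slc13a4 rose 5.94-fold (adjusted p = 0.0247) and Igfbp2, which binds insulin-like growth factors, 2.38-fold (adjusted p = 0.0435). Ratios of Gpx3 and Slc13a4 were 1.85 and 1.44 with gold 20 nm and 2.63 and 2.37 with gold 100 nm. With silicate 100 nm they were 1.78 and 1.67. Igfbp2 had 0.48, 0.47 and 0.77 in these 3 groups. With the replicate block 11 of the 17 were called higher, beside 5.26% of all genes in that fit. Members not called were also high: the anion exchanger gene Slc26a4 had ratios of 1.71, 3.28 and 1.64, the enkephalin precursor gene Penk of 2.34, 3.57 and 0.67 and the microfibril gene Mfap4 of 1.35, 2.87 and 2.21. Decorin (Dcn) read -0.14, 3.73 and 1.58, and its PBS pool of slide 1 was at 12.40. In pooled tissue, more cells of a type and more RNA per cell cannot be told apart, which holds for each list that follows.

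Genes of other tissues of the eye varied beside them. Of 15 measured pigment epithelium and melanocyte markers 0 were called, and 10 lay above 0 on all 3 arrays, beside 15.4% of all genes. Slide medians were 1.89, 0.71 and 0.44. Dct, a melanin synthesis enzyme, was at 14.39, 14.62 and 14.53 in the silicate pools and at 10.02, 11.83 and 13.85 in PBS, so the silicate pools were alike and the PBS pools were not. Under the replicate block 7 of the 15 were called higher, beside 5.26% of all genes in that fit. Of 14 measured genes of cornea and surface epithelium, the keratins Krt19 and Krt14 were called higher, 7.92-fold and 3.51-fold, beside 1.59% of all genes. Their adjusted p was 0.0395 and 0.043, and the random block gave 0.0641 and 0.12. Krt19 had ratios of 4.83, 2.34 and 1.78 and Krt14 of 2.83, 2.36 and 0.24.

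The cornea list had slide medians of 2.98, 1.12 and 0.05. Krt12, the keratin that defines corneal epithelium, was at 7.15, 7.25 and 13.12 in PBS and at 7.36, 7.69 and 8.72 with silicate. On slide 3 it had the lowest ratio among genes with a symbol (clone names left out), -4.41. The PBS pool of slide 3 thus stood apart for Krt12, and Krt5 was at 10.99, 8.57 and 11.92 in PBS and at 14.32, 10.95 and 9.89 with silicate. Cdh3, a cadherin of epithelia, rose 3.21-fold with 2 of 3 PBS pools well above background (adjusted p = 0.0288, lost at 0.0676 with the random block). Under the replicate block 8 cornea genes rose and 1 fell, beside 5.26% of all genes higher and 3.52% lower in that fit. The share of the rises above that goes with these tissues was not tested.

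Skeletal muscle genes gave 1 rise and 1 fall of 15 measured, beside 1.59% of all genes called higher and 0.496% lower. Myh1, a fast myosin heavy chain, rose at least 2.99-fold (levels of 6.27, 6.06 and 6.31 in PBS, not well above background, and 7.47, 8.52 and 7.63 with silicate, adjusted p = 0.0391, lost at 0.12 with the random block). The other fast-fibre genes were high mostly on slides 2 and 3: Myl1 had ratios of 0.64, 4.29 and 2.59, myoglobin (Mb) of 0.66, 2.97 and 2.20 and Tnnt3 of 0.32, 2.34 and 1.54. They were not called. Csrp3 went against them, as it fell on all 3 slides. Lens genes, 24 measured and 0 called, had slide medians of -0.21, -0.20 and 0.91 at PBS levels of 10.28, 12.83 and 12.07, so lens RNA differed by slide in both pools. The alpha crystallin gene Cryaa was at 14.57, 17.53 and 16.25 in PBS and 14.36, 17.29 and 18.12 with silicate. Of 6 erythroid genes Car1 was the one called, beside 2.09% of all genes, and haemoglobin Hba-a1 had ratios of 0.14, 0.74 and -1.63. Collagens and matrix enzymes, 20 measured and 0 called, had slide medians of 0.07, 0.32 and 1.74, with Col1a2 at 0.45, 2.83 and 2.84. Pericyte and smooth muscle genes, 10 measured and 0 called, had medians of 0.18, 0.21 and 0.33.

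Most immune and gliosis lists had medians below 0 on slide 1 and above 0 on slide 3, and none of them held a called member apart from Hdc. Over all genes, deviations from the group mean were shared by arrays of a slide. On slide 1, silicate 20 nm correlated at 0.925 with gold 20 nm, 0.888 with gold 100 nm and 0.921 with silicate 100 nm. On slide 3 these values were 0.637, 0.595 and 0.919. The 14 measured macrophage and monocyte markers had slide medians of -2.56, 0.68 and 3.31, at median levels of 13.07, 7.74 and 9.11 in the PBS pools and 10.31, 8.18 and 13.28 in the silicate pools. Thus the PBS pool of slide 1 and the silicate pool of slide 3 were high, and both pools of slide 2 were low. Ms4a7, a membrane protein of tissue macrophages, was at 13.28, 7.26 and 7.99 in PBS and at 10.55, 8.15 and 14.49 with silicate. Adgre1, an adhesion receptor that marks macrophages, had ratios of -3.70, 0.41 and 5.14, and the lysosomal glycoprotein gene Gpnmb was the exception with 1.17, 1.90 and 3.30 (adjusted p = 0.426).

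The 19 microglia markers had slide medians of -0.74, 0.11 and 2.35. Trem2, a lipid receptor of microglia, had ratios of -0.96, -0.13 and 3.71 and the fractalkine receptor Cx3cr1 of -0.70, 0.40 and 2.57. Tmem119, which sets microglia apart from blood-borne macrophages, had -1.05, -0.04 and 1.76, and P2ry12, a receptor of resting microglia, had 0.01, -0.12 and 0.44. Both microglial and macrophage genes were thus high in the silicate pool of slide 3, while P2ry12 and Gpr34 (ratios of 0.50, -0.27 and -0.01), both receptors of resting microglia, hardly differed there.

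Among neutrophil genes slide 2 went with slide 3. On slides 1 and 2, S100a8 and S100a9 had 1 of the 5 highest or lowest ratios of genes with a symbol (clone names left out). S100a8, a subunit of the antimicrobial protein calprotectin, was at 15.62, 6.48 and 6.66 in PBS and at 8.80, 11.16 and 12.37 with silicate. Its partner S100a9 was at 16.88, 7.97 and 9.13 in PBS and at 11.32, 13.22 and 13.63 with silicate. Both genes were lower with silicate on slide 1, by -6.82 and -5.56, and higher on the other slides, by 4.68 and 5.25 on slide 2 and 5.71 and 4.50 on slide 3. The slide 1 falls were not particular to silicate 20 nm. There its ratios of S100a8 and S100a9 lay 1.47 and 0.62 above those of gold 20 nm. They lay 1.25 and 0.49 above those of silicate 100 nm. The cytokine gene Il1b followed, with ratios of -5.36, 2.21 and 4.37. Over the 11 measured neutrophil genes the slide medians were -2.36, 0.88 and 1.1. Mpo and Elane, granule enzymes made in neutrophil precursors, stayed within -0.13 to 0.24 on the 3 slides. The adjusted p of S100a8 was 0.939 and that of S100a9 0.893.

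Pathways of inflammation had the same order of slides. Slide medians were -0.97, 0.17 and 2.70 for 16 complement genes, -1.43, 0.23 and 2.63 for 16 chemokines and receptors and -2.24, 0.04 and 1.58 for 12 inflammasome and cytokine genes. They were -1.45, 0.05 and 2.35 for 20 interferon-response genes and -1.88, 0.17 and 3.18 for 13 antigen presentation genes. In the complement list C3, the central component, was at 15.01, 9.24 and 10.90 in PBS and at 12.63, 10.52 and 16.53 with silicate, and C4b, which acts upstream of it, was above 0 on all 3 arrays (0.19, 0.18 and 1.81). Ccl2, which draws monocytes, had ratios of -3.07, 0.43 and 3.83 and Ccl5, which draws lymphocytes, of -1.34, 0.00 and 4.82. Nlrp3, the sensor of the inflammasome, had -0.92, -0.06 and 0.14, a smaller range than the caspase gene Casp1 at -2.26, 0.21 and 3.69. The interferon-induced GTPase gene Igtp had -1.83, -0.04 and 3.35, and the class II chaperone gene Cd74 had -2.40, 1.22 and 4.2.

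Gliosis genes, 18 measured, had slide medians of -1.53, 0.12 and 2.35. Gfap, the filament protein that marks reactive glia, was at 10.64, 8.94 and 9.11 in PBS and at 10.74, 8.81 and 11.82 with silicate, so its rise was on slide 3. Serpina3n and A2m, both protease inhibitors, were above 0 on all 3 slides, with ratios of 0.43, 1.11 and 3.87 and of 1.36, 0.07 and 2.70. Lymphocyte and natural killer cell genes, 9 measured of 18, had slide medians of -0.19, 0.06 and 0.74, and lysosome and phagocytosis genes, 20 measured, had -0.81, 0.02 and 1.56. Over the 23 genes of oxidative stress and metal handling the medians were -1.02, 0.08 and 1.02: the metallothionein Mt2 had -1.81, -0.03 and 3.02 and Hmox1, which degrades heme, had -2.94, 1.68 and 1.35. Sod1 and Gpx4, antioxidant enzymes of most cells, stayed within -0.14 to 0.12. Among 17 p53 and cell death genes with medians of -1.11, 0.07 and 0.25, 0 were called. Under the replicate block 4 were lower, beside 3.52% of all genes in that fit.

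**Figure D2:**
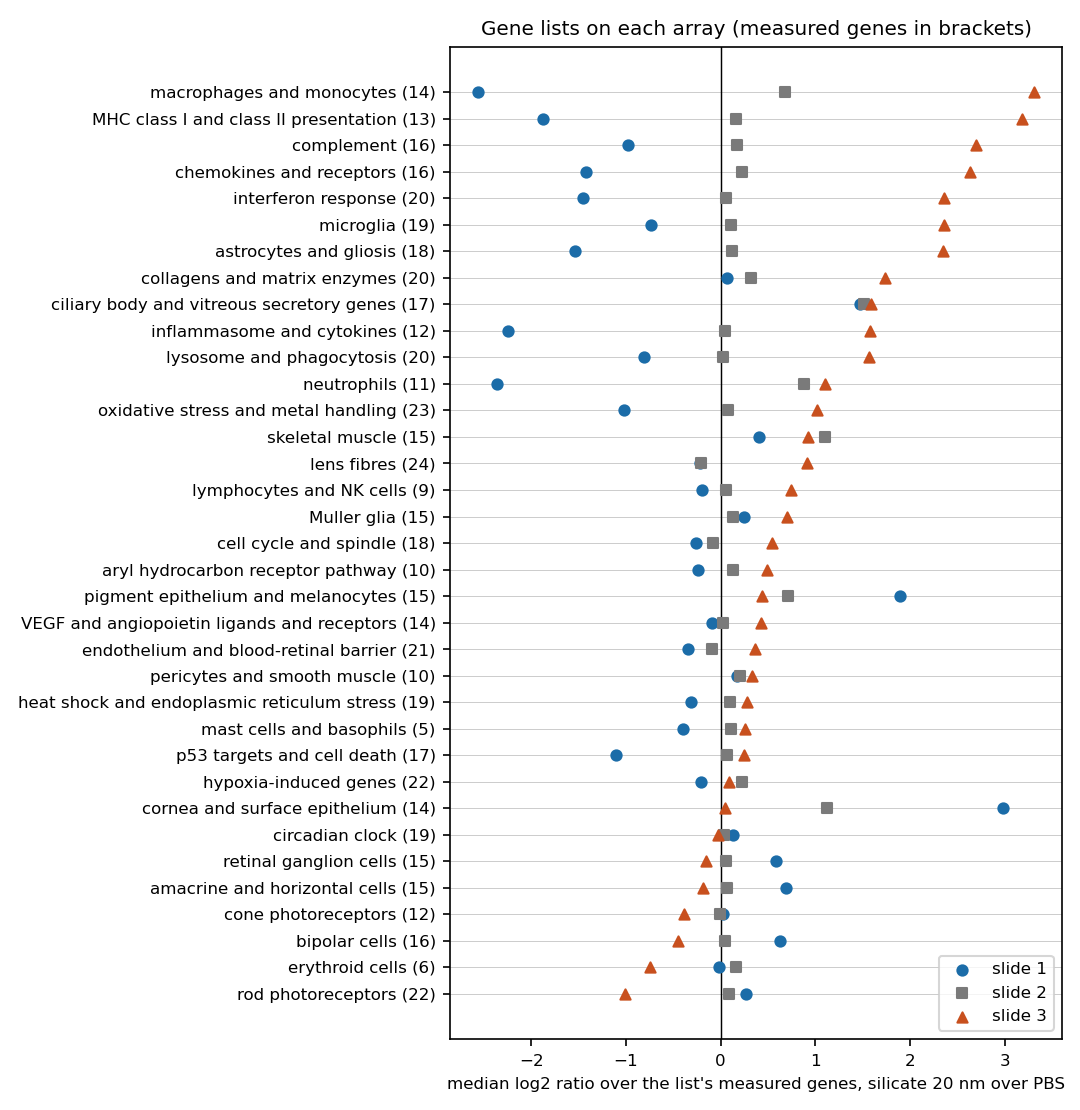
Median log2 ratio of silicate 20 nm over PBS (horizontal axis) over the measured genes of each of 35 lists (vertical axis), with a symbol for each slide. Macrophage genes spread from -2.56 on slide 1 to 3.31 on slide 3, while ciliary body and vitreous genes lay between 1.47 and 1.58 on the 3 slides.

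**Figure D3:**
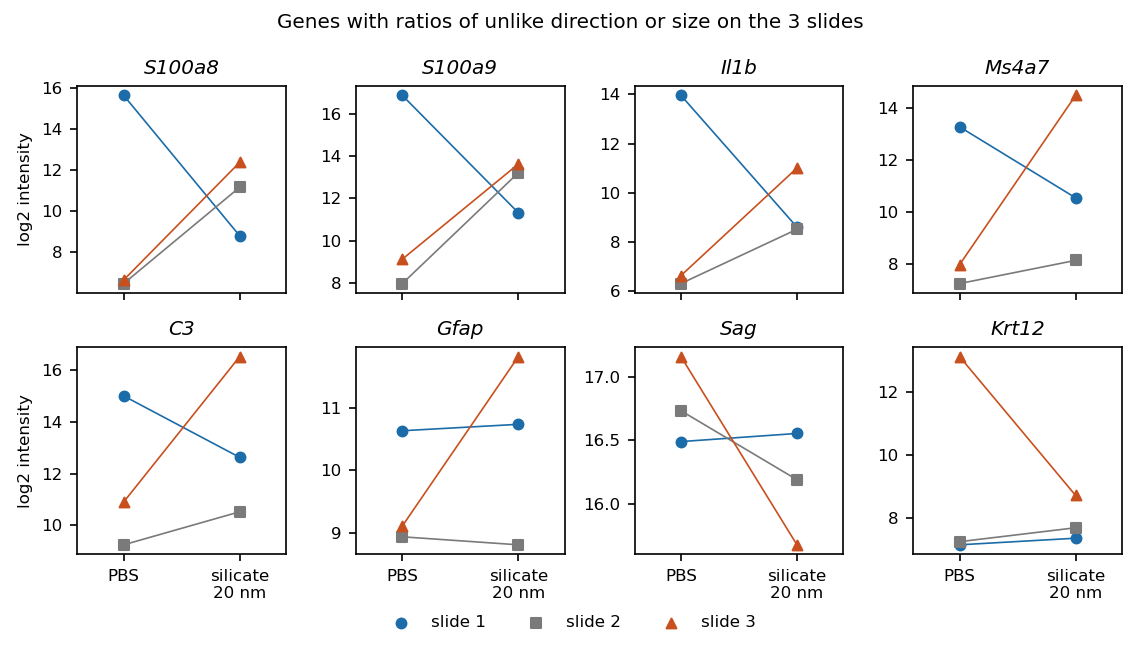
Normalized log2 intensity (vertical axis) of 8 genes in the PBS and silicate 20 nm pools, with a line and symbol for each slide. S100a8 fell on slide 1 and was higher with silicate on slides 2 and 3, Sag was lowest in the silicate pool of slide 3, and Krt12 was high in the PBS pool of slide 3.

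Retinal neuron genes gave 1 call, beside 2.09% of all genes. Elavl4, an RNA-binding protein of neurons counted here with ganglion cells, rose 1.36-fold (levels of 10.76, 10.74 and 10.41 in PBS and 11.37, 11.19 and 10.68 with silicate, adjusted p = 0.0254), and a further probe read 0.25. The slide 3 silicate pool lay below the PBS pools of slides 1 and 2, so the groups overlapped. Ganglion cell genes, 15 measured, had slide medians of 0.59, 0.06 and -0.16, amacrine and horizontal cell genes 0.69, 0.07 and -0.18 over 15, and bipolar cell genes 0.63, 0.05 and -0.45 over 16. The 22 rod genes had medians of 0.26, 0.08 and -1.01 and the 12 cone genes 0.02, 0.00 and -0.39. Thus neuronal lists were higher with silicate on slide 1 and lower on slide 3, the reverse of the macrophage order, and their part in each other was not tested.

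Among rods, arrestin (Sag), which ends the light response, was at 16.49, 16.73 and 17.16 in PBS and at 16.55, 16.19 and 15.68 with silicate. Its ratios were 0.06, -0.54 and -1.49, those of the phosphodiesterase subunit gene Pde6b were 0.01, -0.57 and -1.46, and no rod gene was called. Müller glia genes, 15 measured and 0 called, had medians of 0.25, 0.13 and 0.69. The support enzymes Glul and Rlbp1 had ratios of 0.60, 0.06 and -0.15 and of 0.56, 0.03 and -0.08, close to the order of the neurons. The lipid carrier gene Apoe had 0.02, 0.37 and 3.45, and the water channel gene Aqp4 had 0.49, 0.63 and 0.69 (adjusted p = 0.11). With the replicate block 3 Müller glia genes were called higher, beside 5.26% of all genes in that fit.

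Vessel genes held 1 call, that of Vegfa, beside 2.09% of all genes. It was among 14 VEGF and angiopoietin genes with slide medians of -0.09, 0.02 and 0.43. The receptors Kdr and Flt1 had ratios of 0.24 and -0.24, the placental growth factor gene Pgf of -0.10, and Angpt1, which steadies vessels through Tek, of 0.57 (adjusted p = 0.175). Of 21 endothelial and barrier genes 0 were called, with slide medians of -0.34, -0.09 and 0.36. The tight junction genes Cldn5, Ocln and Tjp1 had ratios of -0.09, -0.02 and 0.11, and Plvap, which forms openings in leaky vessels, had -0.25 (adjusted p = 0.234). Heat shock and endoplasmic reticulum stress genes, 19 measured and 0 called, had slide medians of -0.31, 0.09 and 0.28, with the chaperone gene Hspa8 nearest the threshold at 0.21, 0.26 and 0.28 (adjusted p = 0.0599). Of 19 circadian clock genes Per2, a core repressor, was called higher at 1.20-fold, beside 1.59% of all genes called higher. Its ratio was 0.26 ± 0.07 (adjusted p = 0.0493, lost at 0.0921 with the random block), and the output gene Dbp had 0.13, -0.37 and -0.76. Over all 35 lists, 530 distinct genes were measured, of which 13 were called higher and 6 lower, 3.58% beside 2.09% of all genes tested. The lists were chosen with earlier results of these data known, so this share is no test of them.

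A further set of rises was of probes dim in PBS. Of the 370 higher genes, 77 were not well above background in PBS on any array. The filter kept probes well above background in either channel, so a probe dim in PBS could be kept through its particle channel alone. Such a selection favours rises, and its share in the 77 calls was not tested. The adjusted p of these genes makes no allowance for it. In the other direction, 3 of the 115 lower genes were not well above background in any silicate pool. Serpina6, which carries corticosteroids in blood, was at 6.08, 6.35 and 6.20 in PBS and at 8.56, 8.93 and 8.68 with silicate, at least 5.44-fold (adjusted p = 4.52e-06). Its ratio was 2.74 with gold 20 nm, 2.57 with gold 100 nm and 2.35 with silicate 100 nm, where the particle pool was also in Cy5. Each bound sets the silicate mean against a floor for PBS, which per array is the lowest signal of any probe well above background or, if larger, that of the probe itself. It is a point value without allowance for the spread between arrays. The odorant receptor gene Olfr1040 rose at least 5.13-fold and the lung surfactant protein gene Sftpd at least 3.75-fold. Sntn, a protein of cilia, rose at least 2.97-fold and the spindle gene Dlgap5 at least 2.89-fold. The protease inhibitor gene Pzp rose 3.26-fold, where the probe's own PBS signal set the floor and the bound equals the plain ratio. Further probes of Sftpd and Dlgap5 read 0.28 and 0.44.

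Smok2b, Nxf3 and Nkx2-4 rose at least 2.62-fold, 2.39-fold and 1.91-fold, and Olfr485 rose 2.37-fold, its plain ratio as for Pzp (adjusted p of 0.000704 to 0.00255). Olfr1382 was well above background in all 6 pools and rose 6.63-fold (adjusted p = 5.34e-05), but a further probe of it read -0.08. Prokr1, a prokineticin receptor, rose with a ratio of 1.91 at 1 well-measured PBS pool of 3, Bmp6, a bone morphogenetic protein, with 1.19 at 2 of 3, and Olfr1251 with 1.08 at 3 of 3. The median ratio of the 77 dim genes was 1.09 with silicate 20 nm, 1.07 with silicate 100 nm, 1.07 with gold 20 nm and 0.961 with gold 100 nm. These comparisons share the Cy3 side. The median of the 268 higher genes well above background in both channels on all 3 arrays was 0.509, 0.43, 0.4 and 0.384 in the same order.

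Silicate 20 nm was set against gold 20 nm, particles of another material and the same size, and against silicate 100 nm, the same material and another size. In these differences the dye of a particle pool is the same on both sides. With gold 20 nm 0 genes passed (percent called 0) in limma, with 756 at an unadjusted p under 0.05 and a lowest adjusted p of 0.828, and 0 with the random and the replicate block, with 2067 and 2224 at an unadjusted p under 0.05. With silicate 100 nm 0 genes passed (0) in the 3 fits, with 216, 673 and 637 at an unadjusted p under 0.05 and a lowest adjusted p of 1. The 95% intervals below are from the fit with the replicate block and are not adjusted for the number of genes. The genes were chosen for their change against PBS.

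The falls of Hdc and Csrp3 were larger than with gold 20 nm on each slide. Hdc differed by -1.25 (interval -1.58 to -0.92), with group ratios of -1.26 for silicate 20 nm and -0.01 for gold 20 nm, and Csrp3 by -1.28 (-1.80 to -0.75), with ratios of -1.32 and -0.05. Bub1b differed by -0.89 (-1.22 to -0.55), Ahrr by -0.71 (-1.07 to -0.36), Nek11 by -0.63 (-0.91 to -0.36), Ect2 by -0.51 (-0.76 to -0.26) and Acadm by -0.49 (-0.68 to -0.30). After adjustment over all genes none of these passed, and the adjusted p of Hdc and Csrp3 was 0.192 and 0.225 with the replicate block. Vegfa differed by 0.16 (-0.03 to 0.34) and Arsg by -0.22 (-0.41 to -0.03), and these 2 differences were small beside the others.

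Against silicate 100 nm the differences of Hdc, Csrp3, Bub1b and Ahrr were nearer to 0 than against gold 20 nm. Hdc differed by -0.66 (-0.99 to -0.32), Csrp3 by -0.63 (-1.16 to -0.11), Bub1b by -0.36 (-0.69 to -0.02) and Ahrr by -0.28 (-0.64 to 0.07). Acadm and Hspb6 differed by -0.01 (-0.20 to 0.18) and 0.00 (-0.25 to 0.25), and these intervals do not reach the size of their fall against PBS. Among the rises, Krt19 differed by 3.04 (1.52 to 4.55) from gold 20 nm and by 1.81 (0.29 to 3.32) from silicate 100 nm, and Krt14 by 1.92 (0.74 to 3.10) and 1.28 (0.10 to 2.46). On slide 3 both keratins were below the silicate 100 nm pool, by -0.17 for Krt19 and -0.61 for Krt14. Fbln1, Optc, Gpx3 and Slc13a4 had intervals that spanned 0 in both differences, with widths that do not bear on whether the particles act alike, such as -1.64 to 2.57 for Optc against gold 20 nm.

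Lists were compared in the same way, by their medians. Macrophage genes differed from gold 20 nm by 0.90, -0.43 and 3.87 on slides 1, 2 and 3 and from silicate 100 nm by 0.69, 0.42 and -0.52. The silicate 20 nm and 100 nm pools of slide 3 were thus closer to each other than to the gold pool for these genes. Rod genes differed from gold 20 nm by -0.30, -0.01 and -1.22 and from silicate 100 nm by -0.25, -0.05 and -0.05. Lens genes differed from gold 20 nm by 0.29, 1.33 and 2.56 and from silicate 100 nm by -2.34, 0.03 and -0.64. Ciliary body and vitreous genes differed by 0.18, 0.49 and 0.86 and by 0.18, 1.65 and -0.23, so the difference was above 0 on the 3 slides against gold 20 nm and not against silicate 100 nm. No member of any list passed in either difference.

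**Figure D4:**
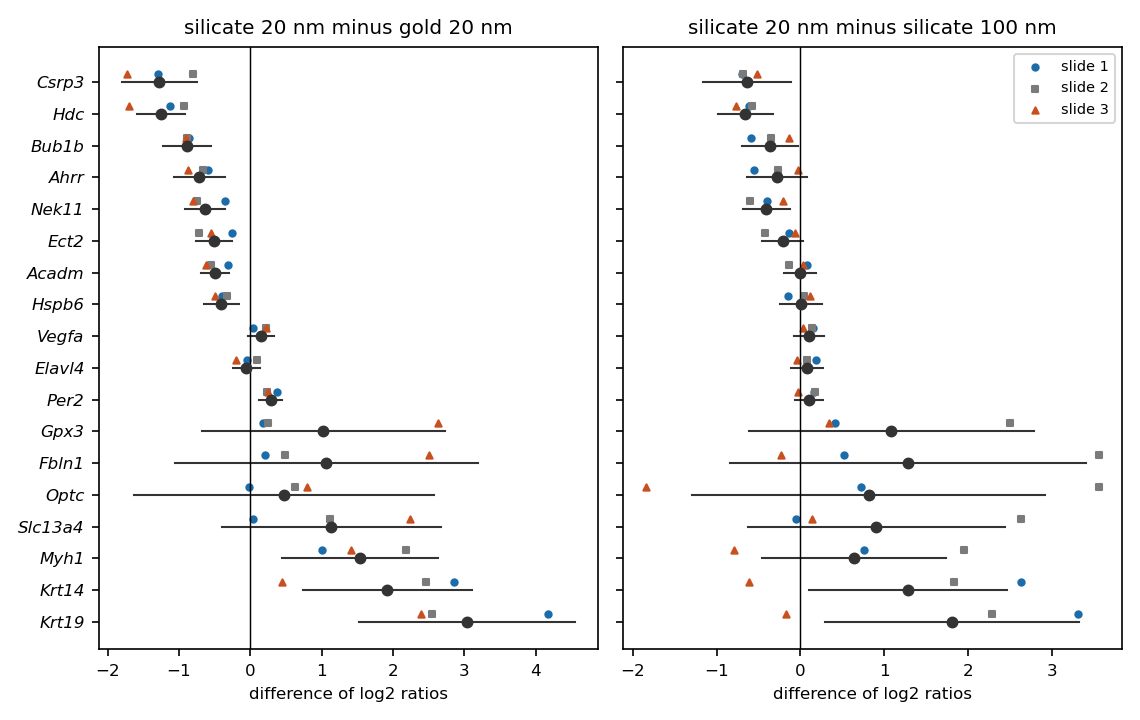
Difference of log2 ratios (horizontal axis) between silicate 20 nm and gold 20 nm (left) or silicate 100 nm (right) for 18 genes called against PBS, with the mean and 95% interval of the replicate block fit in black and the 3 slides as small symbols. Hdc and Csrp3 lay at -1.25 and -1.28 against gold 20 nm, and at -0.66 and -0.63 against silicate 100 nm.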

How the data were processed

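RNA of pooled retinas was hybridised to 12 two-colour Agilent arrays, annotated on mm9 per the file headers. The deposited scanner files give intensity per spot, from the scanner software Feature Extraction (version 11.0.1.1 in the file headers and 9.3.2.1, per the submitters' processing notes). The deposited log10 ratio of Cy5 to Cy3 in these files was used to find the scale of the authors' deposited value table, which holds log2 ratios of Cy5 over Cy3: slopes on the log10 ratio were 3.299 to 3.318, with medians of 0.087, 0.048 and 0.091 on the silicate 20 nm arrays. How its columns were centred stays unknown.

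Median signals were corrected with normexp (offset 50) and normalized by loess, with 1377 control spots at weight 0 and outlier spots left out (211, 211 and 217 on the silicate 20 nm arrays). No spot was saturated. Probes were named through RefSeq accessions (26055 of 39429 received a symbol), kept where, for some group, its 3 arrays each had 1 channel or both well above background (28425 probes), and the brightest probe stood for its gene. Channel levels are after quantile normalization between arrays on mean intensity. limma 3.58.1 (R 4.3.3, with the data.table package at 1.17.8) fitted 4 group means over 12 arrays, two-sided. P-values were adjusted by Benjamini and Hochberg's method over 23203 genes, and every adjusted p is from it. The script was tested on simulated data. With 3 pools a group, their number limits the precision. P-values of the main fit measure the spread between pools, taken over all 4 groups. They treat the 12 arrays as independent, while the random block fit estimated a correlation of 0.494 between arrays of a slide. P-values of the replicate block, and the intervals from that fit, leave out differences between slides. They therefore do not measure the whole spread between pools.

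Replicate numbers equal the slides in the file headers, which pairs the arrays. Deviations from group means correlated between arrays of a slide at 0.0806 to 0.934. The median SD of Cy3 levels was 0.0545, 0.0488 and 0.0873 within slides and 0.164 between them. Which PBS pool was on which array is not stated.

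The comparison, the 35 lists and the tests were chosen with earlier results of these data known. Named are, among genes with a symbol called with 1 sign on 3 arrays, the 15 highest and 15 lowest ratios and the 10 lowest adjusted p, every called list member, up to 4 members per list, and the 5 highest and lowest on each array. Clone names (such as those ending in Rik, or Gm with a number) were left out of these rankings. The rule's genes called between particles were none, and genes shown there were chosen for their change against PBS. Other members are named after their values were seen.

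Some results are not reported here.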

Additional observations from a re-analysis of the deposited data

How the results depend on the processing

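The counts against PBS, 370 genes higher and 115 lower, were recomputed under each alternative. Higher counts were 189 with processed signals, 204 with the stricter filter, 176 from the authors' deposited value table, 1221 with the replicate block, 0 from the 3 arrays alone and 204 without both silicate arrays of slide 3, an alternative chosen after seeing the data. In the same order lower counts were 50, 72, 186, 816, 0 and 18, and they were 64 with median centring and 41 with the slide as a random block. Leaving out 1 slide gave 8 to 169 higher and 0 to 6 lower genes. The cause was not tested, except that the 3 arrays alone and the fits without a slide use fewer arrays. Both differences from other particles had 0 calls under each alternative run for them, which the 3 arrays alone and the fit without both silicate arrays of slide 3 were not. Of 44 named genes none changed sign, and the random block lost the call of 19. The replicate block changed no call among them, which says little, as it called 8.78% of all genes beside 2.09% in the main fit. Without slides 1, 2 and 3, 9, 2 and 12 kept the call, Serpina6 and Dlgap5 each time. Without slide 2 the adjusted p was 0.203 for Csrp3, 0.0657 for Hdc, 0.374 for Bub1b and 0.348 for Ahrr. Signal near background limits the 77 genes dim in PBS.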
